A study of Mus musculus with 44 samples.

Results

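Plasma cells without a YFP mark were compared between bone marrow and spleen of the same mice, 5 days after tamoxifen. The comparison takes 6 of the 44 libraries of the series, a marrow and a spleen library from each of 3 mice, named 07-26, 09-01 and 09-29 in the titles. They were chosen by their labels alone. The mice carried the genotype BEC-YFP and were 24 weeks old when treated. All libraries come from sorted CD138high B220- cells, amplified with SMART-Seq v4 and made into libraries with Nextera XT. The marrow and the spleen cells used here are the YFP- fraction, labelled Bulk PC, with titles carrying TOM. The labels spell out neither the genotype name nor TOM, and do not name the promoter that drives the marking. Where other groups are used, they are the YFP+ fraction of the same 3 mice (with a further spleen library from mouse 09-15), and YFP- cells at day 90 from 4 mice treated at 24 weeks and from 4 mice treated at 6 to 8 weeks. A marrow library of mouse 09-15 whose title and cell type label disagree was left out.

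Plasma cells are the end stage of the B cell lineage and secrete antibody. They lose the B cell programme led by Pax5, and they depend on Prdm1, Irf4 and Xbp1, which drive their identity and their enlarged secretory machinery. The spleen forms many plasma cells during responses, while the bone marrow is known for niches in which some plasma cells persist for long periods, fed by survival signals such as APRIL through the receptor BCMA (Tnfrsf17).

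The 6 libraries held between 8575581 and 11722504 deposited counts, and 22.0% to 34.7% of the counts were Jchain, the joining chain of secreted IgM and IgA. Immunoglobulin genes are not among those measured here. The defining plasma cell genes were present in all 6 libraries. Xbp1 lay between 6009 and 13300 CPM (counts relative to the library total, scaled by TMM), Prdm1 between 73.3 and 146, and Irf4 between 129 and 278. Pax5 did not exceed 0.0947 CPM in any of them. Libraries of mouse 09-01 held Xist, and those of the other mice the Y-linked Ddx3y in its place. The spleen library of mouse 07-26 stood apart. Its Sdc1, the gene of CD138 on which the cells were sorted, was 149.5 CPM, against 325 in spleen 09-01, 587 in spleen 09-29 and 634 to 744 in the 3 marrow libraries. Other differences of that library, given beside the results below, are in macrophage and erythroid markers and in short transcripts.

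Of 12457 genes tested, 4 were higher in marrow and 2 were lower (edgeR quasi-likelihood test with mouse as a block, Benjamini-Hochberg adjusted p under 0.05). These are 0.0321% and 0.0161% of the genes. At an unadjusted p under 0.05, 11.1% were higher and 12.2% were lower, 2898 genes in all. The 4 higher genes were Cyp4f18, Slc41a2 and the basophil proteases Prss34 and Mcpt8. The 2 lower genes were Metrnl and Nemp1. The next gene had an adjusted p of 0.0512 and 1004 genes lay under 0.1. Without the mouse as a block 0 were higher and 1 lower, and DESeq2 with the block called 417 and 708. No gene passed without mouse 07-26 (325 higher and 380 lower at an unadjusted p under 0.05, edgeR), or without either of its libraries, and without mouse 09-01 there were 2 and 1. Without spleen 09-29 alone, 1607 were higher and 1386 lower, and without both libraries of that mouse 1368 and 1124, the 6 genes among them each time. Without marrow 09-29 alone there were 5 and 0.

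Cyp4f18, a cytochrome P450 that hydroxylates leukotriene B4, was higher in the marrow of each mouse. Marrow held 129 CPM in mouse 07-26, 382 in 09-01 and 456 in 09-29, and spleen held 29.3, 112 and 248 in the same order. The levels of the 2 organs overlapped between mice, since spleen 09-29 lay above marrow 07-26, but within each mouse the marrow was higher. The log2 difference was 1.58 ± 0.29 (3 mice compared, SE from the fit of all 43 libraries here and below, edgeR adjusted p = 0.0209). In YFP- cells at day 90 of the mice treated at 24 weeks, where the gene also passed (1.60 ± 0.25, edgeR adjusted p = 0.00237), marrow held 257 to 407 CPM and spleen 51.0 to 167, in other mice and without overlap. The day 5 call ended in 8 of 18 alternative settings: without either or both libraries of mouse 07-26 or of mouse 09-01, with only the 6 libraries compared (edgeR adjusted p = 0.0762) and without the mouse block (0.192). Its log2 difference lay between 1.31 and 1.93 over the 18.

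Slc41a2, a magnesium transporter, had marrow levels of 19.3, 24.8 and 12.1 CPM in mice 07-26, 09-01 and 09-29, against 4.12, 4.06 and 5.97 CPM in spleen. All marrow libraries lay above all spleen libraries (log2 difference 1.89 ± 0.35, edgeR adjusted p = 0.0209). It is named outside the rule on level, which asks for a mean of 20 CPM in the higher organ, because it is among the few genes that passed. The call ended in 9 of the 18 alternative settings, without either or both libraries of mouse 07-26 (edgeR adjusted p from 0.19 to 0.56) or of mouse 09-01 (0.218 to 0.442), with only the 6 libraries (0.174), with day-5 libraries only (0.144) and without the mouse block (0.116). In YFP+ cells of the same mice, Slc41a2 lay at 25.8, 17.8 and 8.15 CPM in marrow of mice 07-26, 09-01 and 09-29 and at 18.8, 21.4 and 16.5 in spleen. Marrow was higher there in mouse 07-26 and lower in the others. The organ difference of Slc41a2 was larger in YFP- than in YFP+ cells by 2.09 ± 0.48 on the log2 scale, which did not pass (edgeR adjusted p = 0.51). In YFP- cells at day 90, its log2 difference was 0.11 ± 0.29 in mice treated at 24 weeks. It was -0.18 ± 0.29 in mice treated at 6 to 8 weeks. The difference between day 5 and day 90 of mice treated at 24 weeks did not pass (1.78 ± 0.45, edgeR adjusted p = 0.29).

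Metrnl, a secreted protein of the meteorin family, was lower in marrow. Marrow held 15.9, 20.8 and 9.95 CPM in mice 07-26, 09-01 and 09-29, and spleen 35.6, 39 and 31.5 CPM. The groups did not overlap (log2 difference -1.22 ± 0.21, edgeR adjusted p = 0.00843). Unlike most genes described here, Metrnl had its largest difference in mouse 09-29, at -1.64. Its call ended in 9 of 18 alternative settings. It was lost without either or both libraries of mouse 07-26 (edgeR adjusted p = 0.56 without both), without spleen 09-01 (0.0511) and without marrow 09-29 (0.068). The call also ended with only the 6 libraries compared (0.255), with day-5 libraries only (0.122) and without the mouse block (0.142). With each library's trend on transcript length taken out, the adjusted p was 0.0536 (edgeR). Nemp1, a protein of the inner nuclear membrane, lay at 1.61, 0.904 and 1.35 CPM in marrow and at 10.5, 6.48 and 3.4 in spleen. Its groups did not overlap either, at levels under the naming minimum (-2.33 ± 0.45, edgeR adjusted p = 0.034). The Nemp1 call ended in 11 of 18 alternative settings, among them without any library of mouse 07-26 or 09-01 (edgeR adjusted p from 0.16 to 0.575), without marrow 09-29 (0.0569), with only the 6 libraries (0.35), with day-5 libraries only (0.144) and with limma voom (0.055).

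Prss34 and Mcpt8 encode proteases of basophils, and their calls rest on 1 library. In marrow 07-26 Prss34 was at 2236 CPM and Mcpt8 at 562 CPM. In the other 5 libraries Prss34 did not exceed 0.723 CPM and Mcpt8 did not exceed 0.181. The other basophil and mast cell genes Cpa3 (170 CPM) and Fcer1a (98.1 CPM) were also high in marrow 07-26, with at most 2.87 and 1.5 CPM elsewhere. The fitted log2 differences of 11.92 and 11.52 compare 1 high library with levels near 0 and are not a common difference of the 3 mice. At day 90 the same genes were high in marrow M3 (240 and 88.1 CPM) and F15 (150 and 47.7 CPM) of the mice treated at 24 weeks and near 0 in the other 2. Neither call holds without marrow 07-26 (edgeR adjusted p = 0.36 and 0.551), without the mouse block (0.124 and 0.142) or with DESeq2 (0.198 and 0.427).

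**Figure D1:**
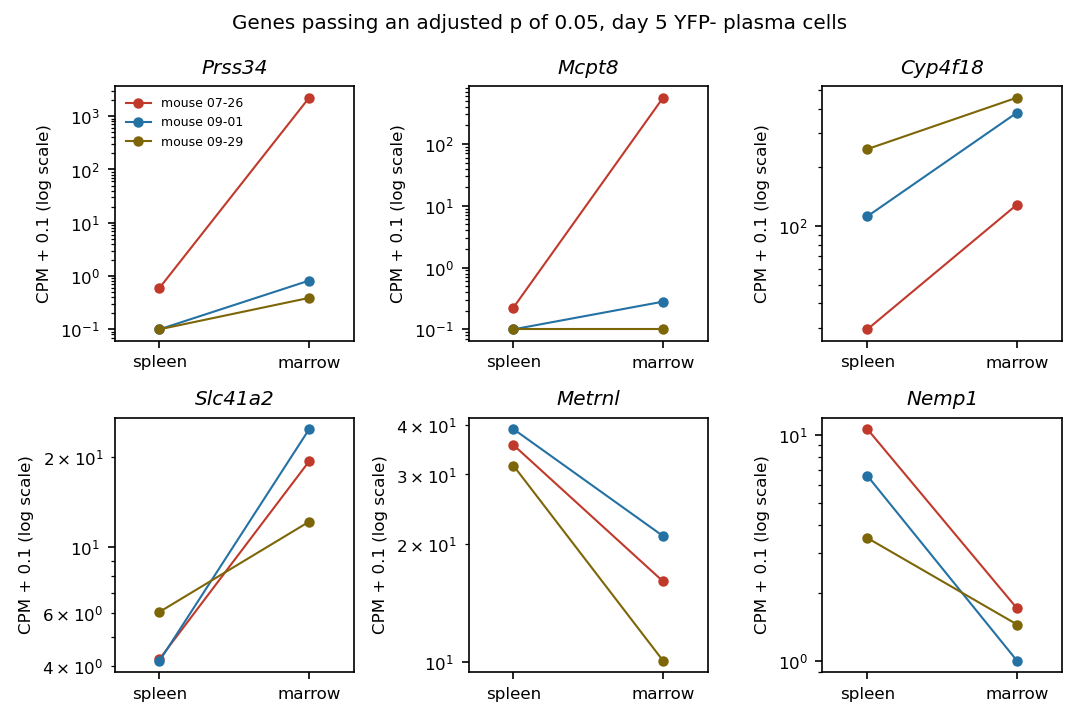
Levels of the 6 genes with an adjusted p under 0.05, in CPM plus 0.1 on a log axis, with 1 line per mouse from its spleen to its marrow library. Prss34 and Mcpt8 are high in marrow 07-26 only. Cyp4f18 and Slc41a2 are higher and Metrnl and Nemp1 lower in the marrow of every mouse.

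Genes that missed the threshold narrowly show how the mice differed. By the naming rule, the next higher genes were Spag6, Tubg1, Lrrn3, Spsb3, Elp2 and Wnt10a, with log2 differences from 1.01 to 1.78 and adjusted p from 0.0512 to 0.0632. The next lower genes were Lamtor4, Ifi27l2a, Cd302, Snhg15, S100a10, Aif1 and H2ac19, with log2 differences from -6.33 to -1.16 and adjusted p from 0.0626 to 0.0632. Tubg1, a subunit of the microtubule-nucleating gamma-tubulin complex, had 80.9, 69.3 and 62.2 CPM in marrow of mice 07-26, 09-01 and 09-29, against 24.8, 23.6 and 50.2 in spleen. Marrow was close to even across mice, and spleen 09-29 lay near the marrow level. Wnt10a, a secreted Wnt ligand, was different in that its log2 difference was nearly the same in each mouse (0.95, 1.09 and 0.94), although its level was several times higher in mouse 09-29 in both organs (136 CPM in marrow and 70.6 in spleen, against at most 25.7 elsewhere). Ifi27l2a, an interferon-induced mitochondrial protein, lay at 92.8, 98 and 74.6 CPM in marrow and at 956, 445 and 142 in spleen. Its spleen levels were above all marrow levels and differed widely between mice, while the marrow levels were similar. Cd302 and Aif1, which myeloid cells express, were at 59.6 and 103 CPM in spleen 07-26 and at no more than 5.36 CPM in the other 5 libraries.

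Over all genes, the organ difference was largest in mouse 07-26 and smallest in mouse 09-29. The median absolute log2 difference was 0.87 in mouse 07-26, 0.64 in mouse 09-01 and 0.29 in mouse 09-29. In those mice 43.9%, 30.4% and 14.5% of genes differed at least 2-fold. Across genes, the log2 differences of mice 07-26 and 09-01 correlated with r = 0.45, and those of mouse 09-29 with r = 0.043 and 0.049 against these mice. Genes are not independent replicates, and no test was made of these values. All 3 marrow libraries lay above all 3 spleen libraries for 811 genes (6.51%) and below them for 764 (6.13%).

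Short transcripts separated the organs in mice 07-26 and 09-01. Genes whose longest annotated transcript is up to 1000 nt (834 genes) had median log2 differences of -1.15, -0.92 and 0.08 in mice 07-26, 09-01 and 09-29. For the 5097 genes over 2000 and up to 4000 nt the medians were 0.46, 0.29 and -0.02. Among the shortest class, 41% were lower in marrow at an unadjusted p under 0.05 and 0.959% higher, against 12.2% and 11.1% of all genes. By library, the median deviation of the shortest class minus that of genes over 4000 nt was 0.77 in spleen 07-26 and 0.41 in spleen 09-01 (log2), the second and the eighth highest of 43 libraries. It was -0.43 and -0.53 in the marrow of these mice, and -0.08 and 0.03 in spleen and marrow of mouse 09-29. In YFP+ spleen of mice 07-26 and 09-01 it was -0.24 and -0.64, and the organ difference of YFP+ cells for the shortest class was -0.05. The part of RNA quality or of library preparation in this pattern was not tested. With each library's trend on transcript length taken out, an alternative added after seeing the data, 4 genes were higher and 0 lower. The 4 were the same genes, and Metrnl and Nemp1 had edgeR adjusted p of 0.0536 and 0.0506.

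**Figure D2:**
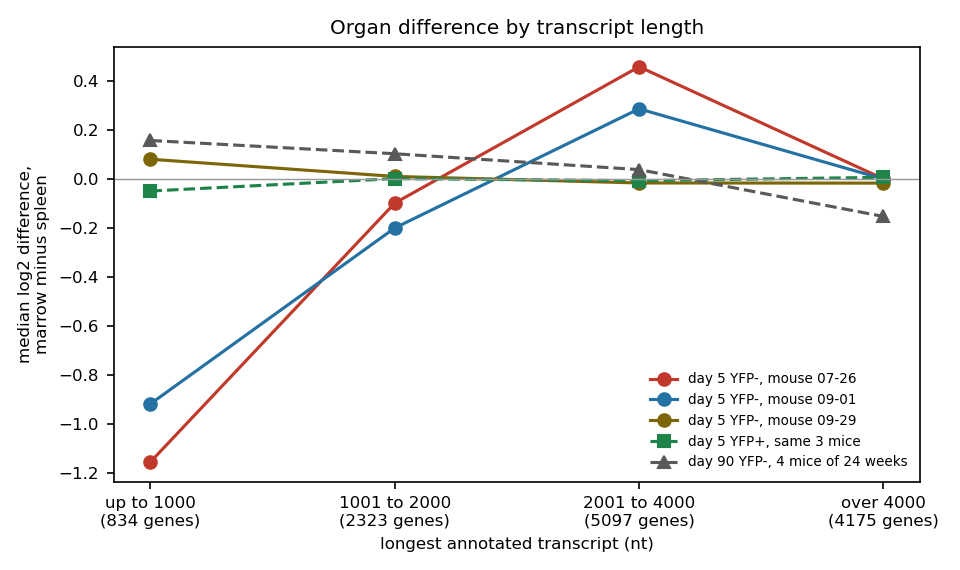
Median log2 difference of marrow minus spleen by class of transcript length, for each mouse of the day 5 YFP- comparison, for day 5 YFP+ cells and for day 90 YFP- cells of mice treated at 24 weeks. In mice 07-26 and 09-01 the shortest class lies at -1.15 and -0.92, and in the other 3 lines it lies between -0.05 and 0.16.

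Ribosomal protein genes, whose transcripts are short (median 1059 nt against 3139 nt over all genes), followed that pattern. None of the 75 passed. At an unadjusted p under 0.05, 70 were lower in marrow and 0 higher, against 12.2% and 11.1% of all genes. The median log2 difference was -0.91, with -1.56, -1.19 and 0.32 in mice 07-26, 09-01 and 09-29, and -0.03 in YFP+ cells of the same mice. With the length trend taken out, 42 of 75 remained lower at an unadjusted p under 0.05, where 1397 of all 12429 genes were. Without mouse 07-26 there were 2 of 75, where 380 of all 12457 genes were lower. The mitochondrially encoded genes had a median of -0.48. Of these 13 genes, 4 were lower and 0 higher at an unadjusted p under 0.05, against the same shares of all genes. Their medians were -0.76 and -0.84 in mice 07-26 and 09-01 and 0.57 in mouse 09-29. With the length trend taken out, 1 of the 13 was lower and 1 higher at that p, where 1397 and 1083 of all 12429 genes were.

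Among 20 plasma cell identity genes none passed, and at an unadjusted p under 0.05 2 were higher in marrow and 7 lower, where 11.1% and 12.2% of all genes were (median log2 difference -0.05, against 0.04 over all genes). The 2 higher genes were Sdc1, the heparan sulphate proteoglycan CD138, and Xbp1, the transcription factor of the secretory programme. Xbp1 held 12070, 10810 and 13300 CPM in marrow and 6009, 8817 and 12700 in spleen of mice 07-26, 09-01 and 09-29. Marrow was higher in each mouse, but spleen 09-29 lay above marrow 07-26 and 09-01. Tnfrsf17, which encodes BCMA, held 430, 391 and 387 CPM in marrow against 890, 669 and 322 in spleen, so that its direction turned in mouse 09-29 (-0.55 ± 0.19, edgeR adjusted p = 0.0987). Irf4, the transcription factor needed for plasma cell identity, turned likewise, with 186, 162 and 132 CPM in marrow and 257, 278 and 129 in spleen. Irf4 did pass in YFP- cells of day 90 in the mice treated at 24 weeks, lower in marrow by a log2 value of -0.76 ± 0.15 (edgeR adjusted p = 0.0162). Creld2, an ER protein induced by stress, lay at 1626, 1870 and 2286 CPM in marrow against 2425, 2793 and 3600 in spleen (-0.60 ± 0.16, edgeR adjusted p = 0.07). Its groups did not overlap, and its log2 differences were nearly equal in the 3 mice (-0.58, -0.58 and -0.66).

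Of 31 genes of ER folding and secretion none passed, 2 were higher and 8 lower at an unadjusted p under 0.05 (median -0.06), against 11.1% and 12.2% of all genes. Manf, a secreted ER stress protein, lay at 1006, 918 and 1322 CPM in marrow and at 2382, 1866 and 1812 in spleen, without overlap. Sec61b, a subunit of the translocon through which secretory proteins enter the ER, lay at 298, 291 and 339 CPM in marrow against 875, 619 and 354 in spleen. The 2 higher genes, Edem1 and Sel1l, act in the disposal of misfolded ER proteins. Edem1 held 3409, 3607 and 3852 CPM in marrow, and 1532, 2386 and 4120 in spleen. In the integrated stress response list 1 of 18 genes was higher and 3 lower at that p. The latter include Ddit3, the transcription factor CHOP (ENSMUSG00000025408, since the symbol is not unique in the table; 51.9, 50.6 and 48.3 CPM in marrow against 118, 112 and 64.3 in spleen, edgeR adjusted p = 0.0687). Its marrow levels were nearly equal and lay under all spleen levels.

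Survival receptors split by member rather than by list, with 3 of 17 higher and 4 lower at an unadjusted p under 0.05, against 11.1% and 12.2% of all genes, and none passing. Tnfrsf13b, the receptor TACI for APRIL and BAFF, lay at 1152, 1199 and 925 CPM in marrow and at 412, 592 and 945 in spleen. Tnfrsf13c, the BAFF receptor, lay at 154, 180 and 225 CPM in marrow against 47.3, 110 and 197 in spleen, higher in marrow in each mouse. BCMA thus had the opposite sign from the 2 related receptors in mice 07-26 and 09-01. Cd38, an ectoenzyme that consumes NAD, was lower in marrow in every mouse and without overlap, at 25.3, 16.9 and 24.9 CPM against 38.3, 34.9 and 41.9 (-0.79 ± 0.30, edgeR adjusted p = 0.123). It passed in YFP- cells at day 90 in the younger mice (-1.40 ± 0.27, edgeR adjusted p = 0.0159). Of 20 apoptosis regulators, 1 was higher and 7 were lower at that p, to be read against the same shares of all genes. Bax, a pore-forming executioner, lay at 67.4, 77.6 and 90.6 CPM in marrow and at 120, 143 and 87.4 in spleen, and Bcl2, which opposes it, at 14.9, 37.7 and 27.9 against 33.9, 53.3 and 27.4.

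Homing and adhesion genes, which place plasma cells in their niches, had no member that passed among 31 tested. At an unadjusted p under 0.05, 2 were higher and 6 lower (median -0.12), against 11.1% and 12.2% of all genes. Cxcr4, the receptor for the marrow chemokine CXCL12, lay at 11, 20.1 and 31.8 CPM in marrow and at 8.86, 12.4 and 40.4 in spleen (0.22 ± 0.30, edgeR adjusted p = 0.692). Ccr9, a gut-homing chemokine receptor, lay at 15.2, 14.6 and 4.83 CPM in marrow against 6.61, 5.27 and 2.4 in spleen, higher in each mouse but at low levels. Cd44, a receptor for hyaluronan, lay at 112, 111 and 87.4 CPM in marrow and at 207, 175 and 102 in spleen. Klf2, a transcription factor of lymphocyte trafficking, lay at 44.9, 17.2 and 3.19 CPM in marrow against 83.1, 40.7 and 12.9 in spleen. It was lower in the marrow of each mouse, and both organs were highest in mouse 07-26.

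Glycolysis and proliferation genes had members higher in marrow and none lower. At an unadjusted p under 0.05, 7 of 16 glycolysis genes and 7 of 32 proliferation genes were higher and 0 of either were lower, against 11.1% and 12.2% of all genes, and none passed after adjustment. Ldha, which reduces pyruvate to lactate, lay at 208, 203 and 165 CPM in marrow and at 93, 148 and 141 in spleen (0.60 ± 0.16, edgeR adjusted p = 0.0698). Its marrow levels were all above its spleen levels. Pkm, pyruvate kinase, lay at 239, 352 and 195 CPM in marrow and at 60.4, 143 and 195 in spleen, with no difference in mouse 09-29. The glycolysis median was 1.00, 0.45 and -0.04 in mice 07-26, 09-01 and 09-29. Without mouse 07-26, 0 of the 16 were higher at that p, where only 325 of all 12457 genes were. Among proliferation genes, Mcm2, a subunit of the replicative helicase, lay at 29.1, 36.9 and 7.92 CPM in marrow and at 8.73, 9.68 and 8.54 in spleen. Bub1b, a kinase of the spindle checkpoint, lay at 22.9, 28.8 and 16.5 CPM in marrow against 2.75, 9.42 and 10.7 in spleen, higher in each mouse. Mki67, the most used marker of cycling cells, did not share that direction, with 46.2, 26.2 and 19.1 CPM in marrow and 38.1, 56.2 and 20 in spleen (-0.36 ± 0.39, edgeR adjusted p = 0.612). The proliferation median was 1.65, 0.89 and -0.23 by mouse. Without mouse 07-26, 2 of 32 were higher at that p, against the same 325 of all 12457 genes.

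**Figure D3:**
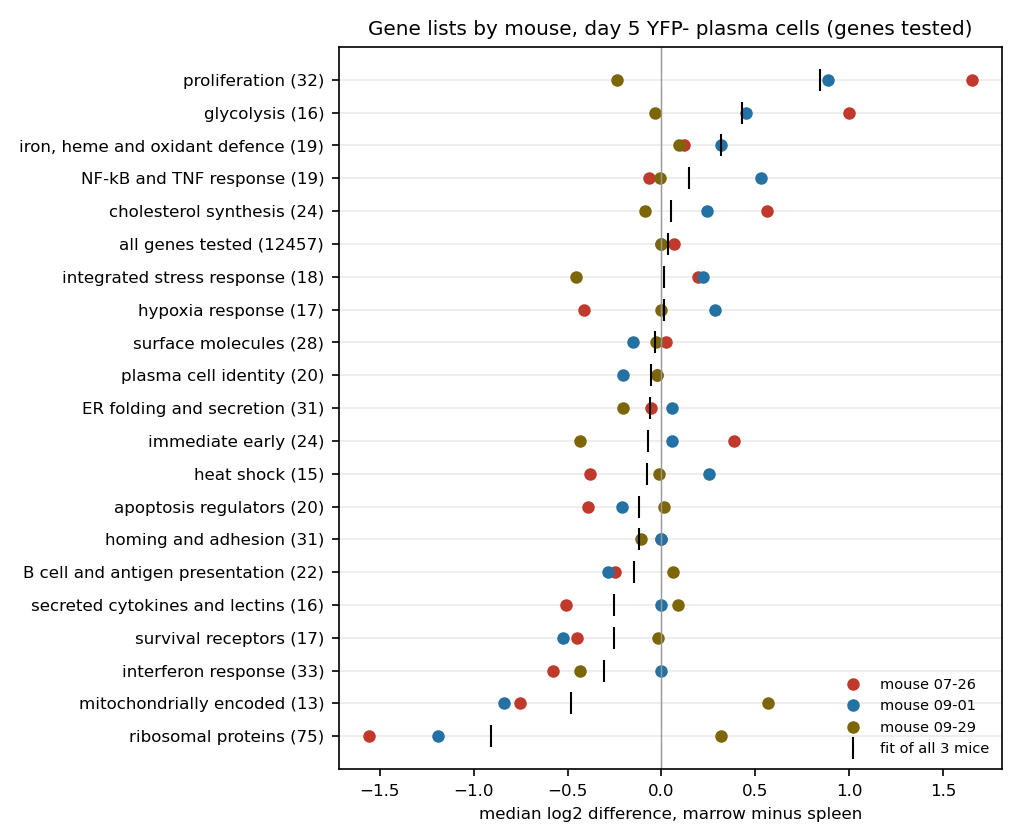
Median log2 difference of marrow minus spleen for each gene list, by mouse (points) and in the fit of all 3 mice (vertical ticks), with the number of genes tested in brackets. For ribosomal proteins, mitochondrially encoded genes, glycolysis and proliferation, mice 07-26 and 09-01 lie on 1 side of 0, and mouse 09-29 on the other.

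Interferon response genes had members in both directions, 20 of 33 below 0 and 13 above. None passed, and 10 were lower and 2 higher in marrow at an unadjusted p under 0.05, against 12.2% and 11.1% of all genes (median -0.31, with -0.58, 0 and -0.43 by mouse). Isg15, a ubiquitin-like modifier, lay at 2.27, 4.16 and 1.45 CPM in marrow and at 9.98, 10.8 and 3.32 in spleen, lower in the marrow of each mouse although spleen 09-29 lay under marrow 09-01. Trim30a, an antiviral and inflammasome regulator, lay at 28.8, 30 and 26.7 CPM in marrow and at 73.9, 38 and 38.6 in spleen, without overlap (-0.77 ± 0.23, edgeR adjusted p = 0.0735). Bst2, the tetherin that holds budding virions, lay at 169, 207 and 199 CPM in marrow and at 253, 377 and 177 in spleen. Ifit1, an RNA sensor, was opposite, at 7.01, 4.7 and 6.18 CPM in marrow against 1.3 and 5.14 in spleen 09-01 and 09-29 and nearly none in spleen 07-26. The median of the list was also below 0 in YFP- cells at day 90 (-0.28 in mice treated at 24 weeks and -0.52 in the younger mice) and in YFP+ cells at day 5 (-0.24).

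Promoters of Isg15, Trim30a and Bst2 are shown as examples that hold the motif given below. Interferon-stimulated genes are known for the response element bound by the ISGF3 complex, and these members were lower in marrow at an unadjusted p under 0.05. The 150 bases before each start are given 5′ to 3′ on the strand of the gene, from RefSeq (GRCm38.p6). Capitals mark matches to GAAANNGAAA on either strand, where overlapping matches run together.
Isg15, chr4:156200819-156200968, minus strand: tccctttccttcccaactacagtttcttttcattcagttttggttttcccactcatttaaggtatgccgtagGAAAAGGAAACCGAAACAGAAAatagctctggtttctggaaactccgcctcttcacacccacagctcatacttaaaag
Trim30a, chr7:104465194-104465343, minus strand: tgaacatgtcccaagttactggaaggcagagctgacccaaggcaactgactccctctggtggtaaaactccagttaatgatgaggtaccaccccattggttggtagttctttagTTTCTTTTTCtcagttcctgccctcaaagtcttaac
Bst2, chr8:71537473-71537622, minus strand: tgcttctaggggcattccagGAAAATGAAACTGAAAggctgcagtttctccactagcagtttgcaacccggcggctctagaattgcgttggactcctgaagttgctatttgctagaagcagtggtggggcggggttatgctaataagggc
Isg15 holds 3 overlapping matches, Bst2 2 overlapping matches and Trim30a 1. Of the 33 genes of the list, 26 had a promoter in the table, and 11 of these hold a match in at least 1 of their windows. Trim30a has a further start in the table, whose window holds none. Of the 10 lower members, 7 had a promoter and 4 hold a match. Ifi35, Xaf1 and Psmb9, lower at the same p, hold none and are not shown. Both members that lay higher in marrow at that p also hold the motif, Ifit1 with 2 matches and Gbp7 with 1. Of all 27025 genes of the table, 1.85% hold a match in at least 1 of their windows, and of all 32851 promoters 1.59% do.

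Of 16 secreted factors 6 were lower in marrow and 1 was higher at an unadjusted p under 0.05, and of 24 immediate early genes 5 and 1, against 12.2% and 11.1% of all genes. The immediate early median was 0.39, 0.06 and -0.43 in mice 07-26, 09-01 and 09-29, on both sides of 0. Mif, a macrophage-directed cytokine, lay at 99.4, 102 and 92.8 CPM in marrow against 236, 209 and 77.9 in spleen. Grn, the growth factor progranulin, was the secreted gene higher in marrow, at 226, 313 and 496 CPM against 91.8, 148 and 410. Fosb, an AP-1 subunit induced within minutes of stimulation and during tissue dissociation, lay at 32.7, 6.42 and 1.74 CPM in marrow and at 82.5, 45.1 and 2.32 in spleen. It was lower in each marrow, and both organs were highest in mouse 07-26. Dusp1, a phosphatase induced with the same genes, had the opposite sign, at 171, 88 and 25.6 CPM against 34.1, 45 and 21.1. In the remaining lists no gene passed either. At that p, where 11.1% of all genes were higher and 12.2% lower, higher and lower were 2 and 3 of 22 for B cell and antigen presentation, 2 and 6 of 28 for surface molecules, 3 and 2 of 15 for heat shock, and 3 and 2 of 19 for NF-kB. They were 1 and 1 of 17 for hypoxia, 4 and 4 of 19 for iron and heme, and 4 and 1 of 24 for cholesterol synthesis.

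Markers of other cells differed between the libraries and touch several of these results. Of 17 monocyte and macrophage genes 16 were tested. At an unadjusted p under 0.05, 13 were lower in marrow and 0 higher, against 12.2% and 11.1% of all genes. Their summed level was 221, 76.1 and 125 CPM in marrow of mice 07-26, 09-01 and 09-29, and 1783, 179 and 162 CPM in spleen. Genes of red pulp macrophages led in spleen 07-26, with C1qb, a complement subunit, at 555 CPM against 34.8 and 17 in the other spleens, and Spic, the transcription factor of these macrophages, at 134 against 12.8 and 2.98. In marrow, C1qb did not exceed 6.54 CPM and Spic did not exceed 1.71. Cd68 and Lyz2 of the same list were not lower in every marrow. Cd68 lay at 73.8, 74.8 and 117 CPM in marrow of mice 07-26, 09-01 and 09-29, and at 164, 48.3 and 95.8 in spleen. Lyz2 lay at 126, 0.362 and 3.48 CPM in marrow and at 30.8, 4.93 and 22.2 in spleen. Without mouse 07-26, 9 of the 16 were still lower at that p, where 380 of all 12457 genes were, and no list member passed. Slc40a1, the iron exporter ferroportin that these macrophages express, lay at 91.3, 18.8 and 4.56 CPM in spleen and at 4.45, 0 and 0 in marrow. The part of macrophage RNA in the differences of other genes was not tested. In bulk libraries, fewer cells of a type and less RNA per cell cannot be told apart.

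Several of the other marker lists, but not those of B cells, set marrow or spleen of mouse 07-26 apart. Erythroid markers summed to 2604 CPM in spleen 07-26 and 699 in marrow 07-26, and to at most 22.8 in the other 4 libraries, mainly from the globins. Of 19 neutrophil and granulocyte precursor genes, Ngp led with 256 CPM in marrow 07-26, where the list summed to 733 CPM. In the other libraries it summed to 20.9 to 44.9 CPM. T cell markers summed to 13.1 to 55.4 CPM and NK cell markers to 19.5 to 107, the highest of both in spleen 07-26. No stromal or endothelial gene passed the filter on low counts. In the eosinophil, basophil and mast cell list, Prg2 made up most of the sum outside marrow 07-26 (1055 and 2219 CPM in the other marrows, 1068 to 1416 in spleen), while the eosinophil gene Epx was at 0 in all 6 libraries. Ccr3 of the same list was high in spleen 07-26, at 96.7 CPM. It lay at 0.284 CPM in marrow 07-26 and at no more than 4.665 in the remaining libraries. The B cell gene Ms4a1 (32.4 to 182 CPM) was present in all 6 libraries.

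**Figure D4:**
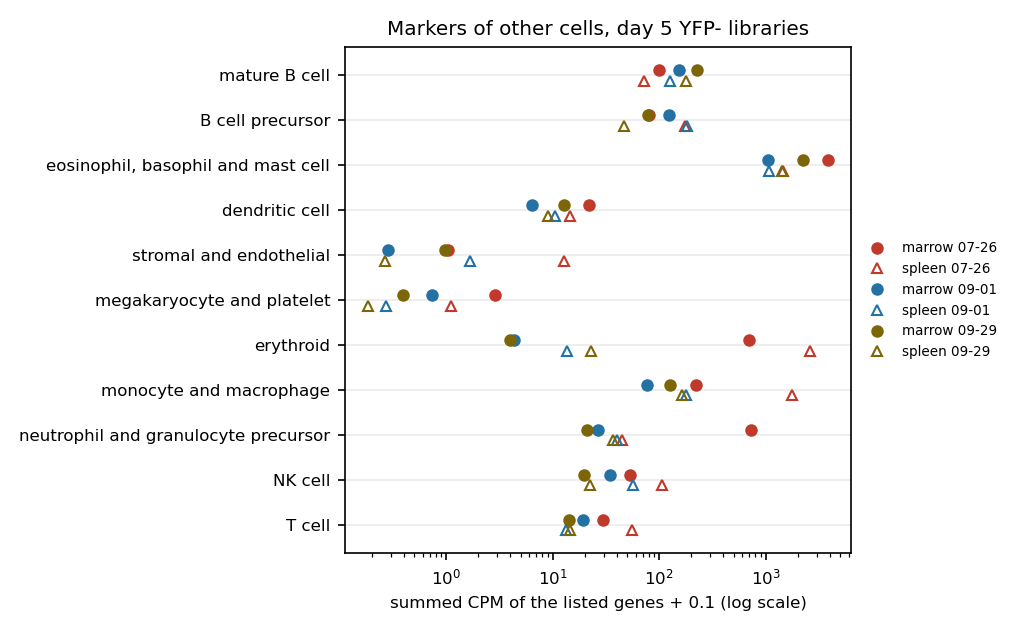
Summed CPM plus 0.1 (log axis) of marker genes of other cells in the 3 marrow libraries (filled circles) and the 3 spleen libraries (open triangles), coloured by mouse. Spleen 07-26 is highest for monocyte and macrophage (1783 CPM) and erythroid markers (2604 CPM), and marrow 07-26 for neutrophil markers (733 CPM) and the list with basophil genes (3879 CPM).

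Genes called between marrow and spleen in YFP- cells at day 90, in other mice, were read at day 5. In mice treated at 24 weeks, 13 genes (0.104%) were higher in marrow at day 90 and 15 (0.12%) lower. Of the 13, 11 were above 0 at day 5 (median log2 1.32) and 9 of these had an unadjusted p under 0.05. Of the 15, 13 were below 0 at day 5 (median -0.43), 9 of them with an unadjusted p under 0.05. Over all genes tested, 6497 of 12457 were above 0 at day 5 and the median was 0.04. At that p, 11.1% of all genes were higher and 12.2% lower. Both the 13 and the 9 include Prss34 and Mcpt8, which were high in marrow 07-26 only. They also include Mmp8, which did not exceed 0.758 CPM in the day 5 YFP- libraries. In the younger mice 17 genes (0.136%) were higher and 9 (0.0722%) lower at day 90. Of these, 14 and 6 had the same sign at day 5, with medians of 0.43 and -0.60. The comparisons share no library, but they come from 1 fit with a common estimate of the spread. Of the 28 genes called in mice treated at 24 weeks, Prss34, Mcpt8 and Cyp4f18 passed at day 5.

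In both age groups 5 genes were called at day 90, Gcsam, Slpi and Spag6 higher and H2-Q6 and H2-Q7 lower in marrow, and each had that direction in all 3 mice at day 5. Gcsam, a regulator of B cell receptor signalling and motility in germinal centre B cells, lay at 40.6, 23.7 and 12.9 CPM in marrow and at 11.4, 9.5 and 3.15 in spleen of mice 07-26, 09-01 and 09-29. The groups did not overlap (1.75 ± 0.43, edgeR adjusted p = 0.0687). Slpi, a secreted inhibitor of leukocyte proteases, was abundant, at 8599, 11610 and 16560 CPM in marrow against 5855, 7643 and 4740 in spleen, without overlap (0.90 ± 0.37, edgeR adjusted p = 0.146). Its largest difference was in mouse 09-29 (1.81), the mouse with the fewest differences. Spag6, a protein of the axoneme with a close paralog, lay at 9.47, 23.7 and 28 CPM in marrow and at 3.74, 2.25 and 13.4 in spleen (1.78 ± 0.36, edgeR adjusted p = 0.0512). The nonclassical MHC class I genes H2-Q6 and H2-Q7 are close copies, and how reads were split between them is uncertain. H2-Q7 lay at 123, 189 and 254 CPM in marrow and at 321, 399 and 338 in spleen, without overlap (-0.99 ± 0.26, edgeR adjusted p = 0.0698). H2-Q6 lay at 65.6, 76.7 and 96.5 against 98.5, 137 and 122 (-0.60 ± 0.22, edgeR adjusted p = 0.117). None of the 5 passed at day 5.

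**Figure D5:**
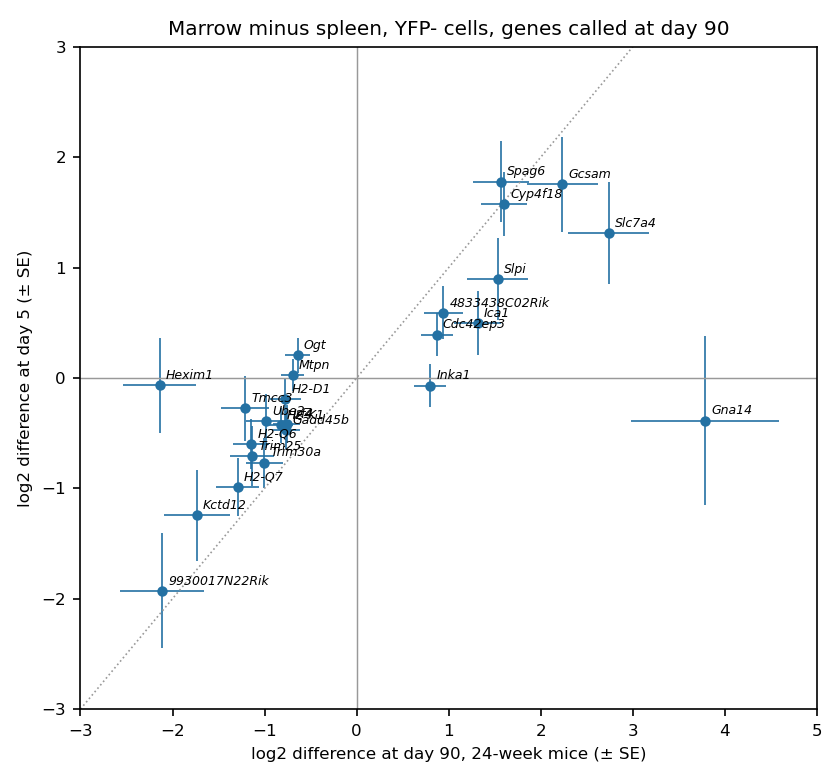
Log2 difference of marrow minus spleen at day 5 (vertical, ± SE, 3 mice) against that at day 90 (horizontal, ± SE, 4 mice treated at 24 weeks) for genes called at day 90, without Prss34, Mcpt8 and Mmp8, whose levels are near 0 in several libraries. Each SE comes from the fit of all 43 libraries. The dotted line marks equal values. Spag6, Cyp4f18, Gcsam and H2-Q7 lie far from 0 at both times, and Hexim1, Inka1 and Gna14 are near or across 0 at day 5.

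Some genes called at day 90 had little difference at day 5. Hexim1, an inhibitor of transcription elongation, was lower in marrow at day 90 (-2.14 ± 0.40, edgeR adjusted p = 0.0106) and differed by -0.06 ± 0.43 at day 5, with 5.49, 5.88 and 4.54 CPM in marrow and 6.86, 6.22 and 3.98 in spleen. Mtpn, a small ankyrin repeat protein, was at -0.70 ± 0.13 at day 90 and at 0.02 ± 0.15 at day 5. The classical class I gene H2-D1 was lower in marrow in each mouse at day 5, but by little (-0.12, -0.20 and -0.26 in mice 07-26, 09-01 and 09-29), and H2-K1 by -0.62, -0.54 and -0.10.

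The organ difference itself was tested against those of other groups. Against YFP- cells at day 90 of mice treated at 24 weeks, 0 genes passed (0% of 12457; the smallest adjusted p by edgeR was 0.289, and 1541 genes had p under 0.05 before adjustment). DESeq2 called 1 gene and limma voom 0. Mice of the 2 times differ, so that time and mouse cannot be told apart in this test. Without the spleen library of mouse 09-29 the count was 1327, without both its libraries 980, and without its marrow library alone 0. Against YFP+ cells of the same mice, 1 gene passed (0.00803%), Prss34, at a log2 difference of 12.32 ± 1.73 (edgeR adjusted p = 0.00624). It stands on marrow 07-26 (2236 CPM), where YFP+ marrow of the same mouse held 0.42 CPM, and it was lost without mouse 07-26, when 0 genes passed. Without mouse 09-29 the count was 549, without its spleen library alone 894, and without its marrow library alone 1. In YFP+ cells alone 0 genes passed between marrow and spleen, with 283 at an unadjusted p under 0.05 against 2898 in YFP- cells. The medians by transcript length also differed between these sorts, as given above.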

How the data were processed

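Bulk mRNA-seq of sorted plasma cells was read from 1 deposited table of expected counts (54960 gene rows, 44 libraries). These expected counts are of the RSEM kind, unscaled between libraries; 3.1% of the deposited values are not whole and were rounded. RSEM 1.3.1, DESeq2 1.26.0 and STAR 2.6.1b are listed in the submitters' processing notes, with the builds GRCm38 and GRCm39 and no role for either. The authors deposited the table without immunoglobulin genes, per the file name. Gene names are those the table pairs with its Ensembl IDs (1362 rows had none).

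Counts were fitted with edgeR 4.0.16 in R 4.3.3 (43 libraries, 12 groups, 13 mice as a fixed block; TMM scaling, filterByExpr with a minimum count of 10, robust quasi-likelihood; residual df 21). P-values were adjusted by Benjamini-Hochberg over the 12457 genes tested, with a threshold of 0.05. Mouse was a block because each mouse gave both organs. Deviations from group means correlated across genes at 0.26, 0.22 and 0.20 within mice 07-26, 09-01 and 09-29, and between -0.18 and -0.01 across them. With 3 pairs an exact permutation test cannot go below p = 0.25, two-sided. CPM use TMM-scaled library sizes, and log2 values by mouse use a prior count of 2. Transcript lengths are the longest of each gene in GENCODE M21 (99.8% of tested genes).

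The rule named up to 15 genes each way that passed with a change of at least 2-fold, a mean of 20 CPM and 1 direction in 3 mice, filled up to 8 with genes of unadjusted p under 0.01 as not passing. Members and lists were chosen with earlier results of these data known. The fit was tested on simulated data. Alternatives used DESeq2 1.42.0 and limma 3.58.1, other filters, scaling and library sets, and leaving out libraries.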

Additional observations from a re-analysis of the deposited data

Results flagged for a closer look

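The organ difference of Prss34 differed between YFP- and YFP+ cells at day 5, by 12.32 on the log2 scale, through the marrow library of mouse 07-26. In groups of 4 libraries, a sample lay far from the others for 3 genes that passed at day 5. For normally distributed values, chance gives this in about 1 of 20 groups. Nemp1 was at 6.3 CPM in 1 marrow library of YFP- cells at day 90 in mice treated at 24 weeks, where the mean was 4.23 CPM. The remaining values are near 0: Prss34 at 0.11 CPM in 1 spleen library of those mice, and Mcpt8 at 0.244 CPM in 1 marrow and 0.593 CPM in 1 spleen library of the younger mice. The other libraries of these groups were at 0, where the rule flags any value, so that rate does not apply to them.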

How the results depend on the processing

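Counts of genes higher and lower in marrow (4 and 2) changed with the settings. Without the replicate block (no pairing by mouse) 0 were higher and 1 lower. With no filter on low counts they were 586 and 655, with a stricter filter 57 and 106, and with DESeq2 417 and 708. With only the 6 libraries compared they were 11 and 45, with 2 and 0 of the original genes among them, and 401 and 603 at a threshold of 0.1. With day-5 libraries only, 1 gene was lower, neither Metrnl nor Nemp1, and with the length trend taken out 0 were. The threshold of 0.1 and the length trend were chosen after seeing the data. Leaving out 1 library or 1 mouse gave 0 to 1607 genes higher and 0 to 1386 lower. DESeq2 size factors gave 4 and 2, and limma voom 3 and 2, of which 2 and 1 are among the original genes. For the difference from day 90 (0 genes) no filter gave 384, DESeq2 1, only the libraries compared 1, and leaving out libraries 0 to 1327. For the difference between YFP- and YFP+ cells (1 gene) the fit without the replicate block gave 0, no filter 106, DESeq2 56, limma voom 0, only the libraries compared 2, day-5 libraries only 2, and leaving out libraries 0 to 894. The cause of these changes was not tested. For the 6 genes that passed and the 13 named as not passing by the rule, no sign changed in 18 alternatives. The rule asked for 1 direction in all 3 mice, so leaving out libraries could hardly change a sign. For genes named from the lists or from day 90 this was not examined gene by gene. The comparison rests on 3 mice with 1 library per organ and mouse. Its SE and p-values use a spread estimated with all 43 libraries of 13 mice, not with these 3 mice alone.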

Other observations

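The library left out for its labels, of marrow of mouse 09-15, was not used in any comparison. Unscaled, it had 286.5 CPM of Cyp4f18, 11.1 of Metrnl, 6.36 of Slc41a2, 4.17 of Nemp1, 527 of Sdc1 and 0 of Prss34 and Mcpt8.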
